A study of Mus musculus with 5 samples.

Results

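The genes described here encode the enzymes and motor proteins that modify chromatin. They were chosen by mouse symbol: the histone deacetylases (Hdac and Sirt), the lysine demethylases (Kdm, without the Y-linked Kdm5d), the lysine methyltransferases (Kmt), the lysine acetyltransferases (Kat with a digit), the SMARC and ARID proteins, the CHD remodelers (Chd with a digit), the DNA methyltransferases (Dnmt) and the TET enzymes (Tet with a digit). The array carried 67 such genes on 112 probe sets, out of 12394 genes with a probe set of their own. Of the 67, 48 passed a filter that kept the brighter 50% of probe sets, against 6665 of all genes.

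RNA came from the ventromedial hypothalamus (VMH), a nucleus known for its part in satiety and energy balance, of C57Bl/6 mice. Under isoflurane, the mice received an electroconvulsive seizure (ECS) through ear clips at 25 mA. The 5 groups were 1 shock collected at 2 h, 1 shock collected at 6 h, 7 shocks collected at 2 h, 7 shocks collected at 6 h, and sham animals handled without current and collected at 2 h. Each group was 1 Affymetrix array of amplified RNA from the laser-dissected nucleus, pooled from 2 or 3 animals. The design also names a repeat of the array work in other animals, which was not analysed here. No sham was collected at 6 h, so both 6 h comparisons with sham also differ in time.

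Chromatin enzymes work in opposed pairs. Acetyltransferases add acetyl groups to histone tails, which loosens nucleosomes and marks active promoters and enhancers, and deacetylases take them off. Methyltransferases and demethylases set and clear marks of active or silent chromatin according to the lysine, DNA methyltransferases and TET enzymes do the same on cytosine, and the SMARC, ARID and CHD proteins belong to machines that move nucleosomes with the energy of ATP. In neurons these proteins are best known for their part in activity-dependent transcription and in memory, and class IIa deacetylases shuttle out of the nucleus when calcium rises.

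Values below are called readings: the deposited signal plus a pseudocount of 1.2, scaled so that the 5 arrays share 1 median. A reading is on a linear scale and may be compared between arrays for 1 probe set, but not between genes. Differences are log2 of 1 reading over another, so 1 is 2-fold. With 1 array per group no test and no error could be given, and 2-fold was used as a rule of size only. The 4 comparisons with sham share the sham array, so a low or high sham reading enters all 4. In bulk tissue, fewer cells of a type and less RNA per cell cannot be told apart.

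The 2 h ECS arrays carried the known mark of a recent seizure, and all 5 arrays carried markers of the dissected region. The immediate early gene Fos read 185 at 2 h and 23.3 at 6 h after 1 shock and 75.4 at 2 h and 25.5 at 6 h after 7 shocks, against 12.6 in sham. Of 9 listed activity-induced genes on the array, Junb, Nr4a1 and Atf3 were below the filter, and the 6 that passed may have done so through the arrays where they were high. Of these 6, at least 2-fold above sham stood 6 and 1 after 1 shock at 2 h and 6 h, and 6 and 5 after 7 shocks. The share of all genes was 6.29% to 7.40%. After 7 shocks at 2 h the deposited Junb (1.1 against 8.2) and Atf3 (0.5 against 10.2) signals were below sham. That of Nr4a1 (28.8 against 16.2) was above. VMH markers were present, with 6 of 7 listed genes above the filter and summed readings of 2252 to 3825; the defining factor Nr5a1 read 67.3 to 158 over the arrays. One label field names the paraventricular nucleus instead. Its defining factor Sim1 was below the filter, with a highest deposited signal of 14.3, but its peptide genes Avp, Oxt and Trh passed. Avp was 2.25 and Oxt 1.68 above sham after 7 shocks at 2 h, and 1.61 and 1.67 after 7 shocks at 6 h. Of the 5 arcuate markers on the array 4 passed, with summed readings of 558 to 1046. Summed markers ran from 15302 to 17971 for neurons, 4072 to 4765 for astrocytes, 5405 to 6238 for oligodendrocytes and 1336 to 1583 for microglia, 807 to 1187 for endothelial cells and pericytes and 297 to 411 for oligodendrocyte precursors. The largest parts of the microglia sum were C1qb and Laptm5 on the 4 ECS arrays. In sham the largest was Csf1r (653, beside 393 for C1qb and 313 for Laptm5). Of the 6 kept microglia markers, 3 were at least 2-fold below sham after 7 shocks at 2 h (P2ry12 -2.24, Aif1 -1.59 and Csf1r -1.53), and 0 at least 2-fold above. The part of these markers in the results was not tested. Cortical markers set 1 array apart: of 6 listed, Tbr1 and Lamp5 passed the filter, and their summed reading was 562 at 2 h and 136 at 6 h after 1 shock, 511 at 2 h and 630 at 6 h after 7 shocks, and 329 in sham.

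The demethylases Kdm2b, Kdm3a and Kdm4c were above sham on all 4 ECS arrays, and of all 48 genes they had the largest smallest difference from it (0.90, 0.81 and 0.64). Standing on 1 side of sham on all 4 arrays was itself near the share of all genes. It held above sham for 10 of the 48 (20.8%, against 19.9%) and below sham for 7 (14.6%, against 16.5%). Other genes had their highest reading on 1 array. For Hdac7, Smarcc1 and Kdm5b it was 7 shocks at 2 h (1.89, 1.79 and 2.02 above sham, each less than the 2.43 of Kdm2b). For Kat2a it was 1 shock at 2 h (1.97 above sham, the largest of the 48 there). The remodeler Chd1 was below sham on all 4 ECS arrays (without rescaling of the arrays it was 0.18 above sham after 7 shocks at 2 h). RefSeq promoter windows on GRCm38.p6, running from 250 bases before to 50 after an annotated start, are shown for 4 of these genes because 3 of them are the demethylases just named and Hdac7 is the class IIa deacetylase with the largest difference. The capitals mark letters that match GCGNGGGCG, the core bound by EGR factors, or TGACTCA, the core bound by AP-1, on either strand. Where a gene had several windows (4 for Kdm2b, 3 for Kdm3a, 2 for Kdm4c and 4 for Hdac7), the 1 with the most matches is shown, read 5′ to 3′ on the strand of the gene.
Kdm2b, chr5:122900301-122900600, minus strand: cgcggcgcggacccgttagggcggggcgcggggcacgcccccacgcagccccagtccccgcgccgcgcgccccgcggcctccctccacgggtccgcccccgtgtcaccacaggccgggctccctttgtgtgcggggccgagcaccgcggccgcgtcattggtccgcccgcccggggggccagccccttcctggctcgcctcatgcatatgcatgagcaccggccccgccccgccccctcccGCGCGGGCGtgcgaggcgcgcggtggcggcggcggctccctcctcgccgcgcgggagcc
Kdm3a, chr6:71632637-71632936, minus strand: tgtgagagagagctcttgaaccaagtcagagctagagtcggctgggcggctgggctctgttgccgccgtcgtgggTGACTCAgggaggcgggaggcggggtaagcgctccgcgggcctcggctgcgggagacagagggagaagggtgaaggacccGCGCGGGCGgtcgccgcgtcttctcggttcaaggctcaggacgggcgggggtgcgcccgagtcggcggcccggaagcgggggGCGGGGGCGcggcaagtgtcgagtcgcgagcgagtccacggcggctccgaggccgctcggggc
Kdm4c, chr4:74251629-74251928, plus strand: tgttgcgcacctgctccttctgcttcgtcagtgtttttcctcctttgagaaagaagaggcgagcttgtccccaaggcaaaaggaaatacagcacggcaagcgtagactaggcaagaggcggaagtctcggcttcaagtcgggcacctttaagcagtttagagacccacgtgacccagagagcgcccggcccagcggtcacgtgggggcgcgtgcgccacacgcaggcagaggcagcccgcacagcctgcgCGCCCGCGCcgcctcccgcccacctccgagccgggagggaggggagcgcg
Hdac7, chr15:97814814-97815113, minus strand: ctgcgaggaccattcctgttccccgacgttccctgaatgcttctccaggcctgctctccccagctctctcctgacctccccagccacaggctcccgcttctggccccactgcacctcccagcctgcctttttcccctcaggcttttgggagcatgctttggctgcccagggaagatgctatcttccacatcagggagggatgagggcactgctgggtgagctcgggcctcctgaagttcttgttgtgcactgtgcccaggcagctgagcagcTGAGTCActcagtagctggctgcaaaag
In the Kdm2b window the EGR-type letters begin 9 bases upstream of the annotated start. The Kdm3a window holds them 95 and 13 bases upstream and the AP-1 letters 175 bases upstream. The Kdm4c window holds the EGR-type letters on the opposite strand at the annotated start itself, and the Hdac7 window holds the AP-1 letters on the opposite strand, 22 bases downstream.

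Of the 48 genes above the filter, 39 had a window, and 8 of them (20.5%) held GCGNGGGCG: Kdm2b, Kdm3a, Kdm4c, Kmt2c, Kmt5a, Dnmt3a, Smarca4 and Smarca5. The same letters stood in 13.6% of 5458 filtered genes and in 6.27% of all 27025 genes with a window. TGACTCA stood in 6 of the 39 (15.4%), namely Kdm3a, Kdm5c, Hdac7, Kat2b, Smarca2 and Smarcb1, against 4.25% of filtered genes and 5.95% of all genes. TGACGTCA, the core bound by CREB, stood in 0 of the 39 and in 3.81% of filtered genes. Taking the most GC-rich window of each gene, the chromatin genes had a median GC content of 64.7%, against 63.0% in filtered genes and 53.3% in all genes. Among windows with at least 60% GC, GCGNGGGCG stood in 8 of 27 chromatin genes (29.6%) and 19.0% of filtered genes, and TGACTCA in 4 of 27 (14.8%) and 2.95%. A gene counted if any of its windows matched. The 39 chromatin genes had 59 windows, against 7215 for the 5458 filtered genes and 32851 for all 27025. The chromatin genes thus had more windows per gene, and the part of this in the shares was not tested. A match describes letters and not bound sites.

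Over all 48 genes, between 0 and 9 stood at least 2-fold to 1 side in a comparison. After 1 shock at 2 h, 6 were at least 2-fold above sham (12.5%, against 6.29% of all filtered genes) and 1 was at least 2-fold below (2.08%, against 6.83%). After 1 shock at 6 h, 6 were above (12.5%, against 7.25%) and 6 below (12.5%, against 7.73%). Those splits depend on the scaling, since without rescaling 4 were above and 3 below after 1 shock at 2 h and 16 above and 3 below after 1 shock at 6 h. All genes shifted too without rescaling. Of the 6665, 312 were then above and 609 below after 1 shock at 2 h, and 1169 above and 255 below after 1 shock at 6 h. After 7 shocks at 2 h, 7 were above (14.6%, against 7.10%) and 0 below (against 6.86%). After 7 shocks at 6 h, 5 were above (10.4%, against 7.40%) and 3 below (6.25%, against 7.25%). The median difference from sham was 0.19 and 0.22 after 1 shock at 2 h and 6 h and 0.05 and -0.07 after 7 shocks at 2 h and 6 h, beside 0.01 to 0.07 for all genes.

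**Figure D1:**
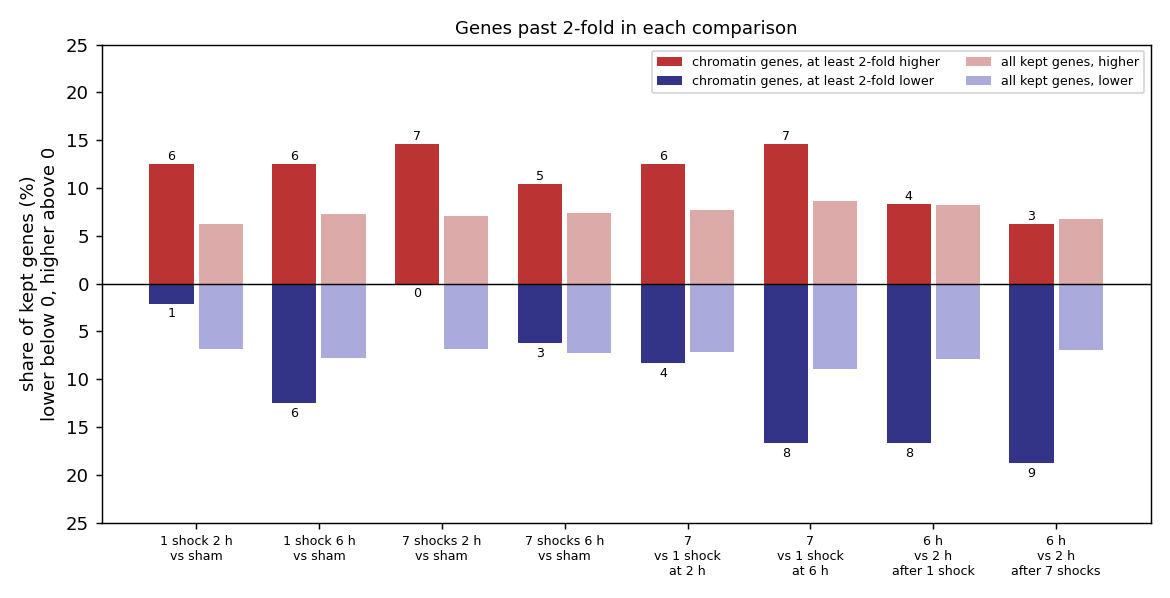
Share of genes above the filter (y axis, percent) that were at least 2-fold higher (above 0) or lower (below 0) in each of the 8 comparisons (x axis), with dark bars for the 48 chromatin genes, their counts printed at the bars, and pale bars for all 6665 genes. The dark bars hold 0 to 9 genes each, and the tallest is the 9 genes lower at 6 h than at 2 h after 7 shocks.

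The comparisons that leave out sham gave these counts. Between 7 shocks and 1 shock at 2 h, 6 were higher (12.5%, against 7.68%) and 4 lower (8.33%, against 7.10%). At 6 h, 7 were higher after 7 shocks than after 1 (14.6%, against 8.60%) and 8 lower (16.7%, against 8.97%). Between 6 h and 2 h after 1 shock, 4 were higher (8.33%, against 8.19%) and 8 lower (16.7%, against 7.86%). After 7 shocks, 3 were higher at 6 h (6.25%, against 6.78%) and 9 lower (18.8%, against 6.96%). Lower genes outnumbered higher ones in both time comparisons, but without rescaling the time comparison after 1 shock had 13 higher and 3 lower. Of all 6665 genes, 1623 were then higher and 197 lower.

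Signal strength moved with these counts. The chromatin genes above the filter had a median mean signal of 89.2, against 108 for all filtered genes. Of the 21 that were brighter than the median filtered gene, 0 to 4 passed 2-fold in a comparison (0% to 19.0%, against 4.98% to 8.94% of all brighter genes), whereas 7 to 11 of the 27 dimmer ones did (25.9% to 40.7%, against 21.2% to 26.2% of all dimmer genes). Over the 8 comparisons, 37 of the 83 differences past 2-fold had a deposited signal on the lower side below its array's median. The part of brightness in the counts was not tested.

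By their brightest probe set, 19 genes passed 2-fold in no comparison (39.6%, against 52.9% of all genes). They were Hdac1, Hdac2, Hdac3, Hdac5, Hdac11, Sirt2, Sirt3, Kat7, Kmt2a, Kmt2e, Kmt5a, Kdm1a, Kdm6a, Dnmt1, Smarca2, Smarca4, Smarca5, Smarce1 and Chd8. Of the 8 with another kept probe set, 3 (Dnmt1, Kdm1a and Smarca4) passed 2-fold by it in at least 1 comparison. Over the 5 arrays the median range per gene was 1.29 on the log2 scale, against 0.99 for all genes, from 0.25 for Hdac2 to 3.31 for Chd7.

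**Figure D2:**
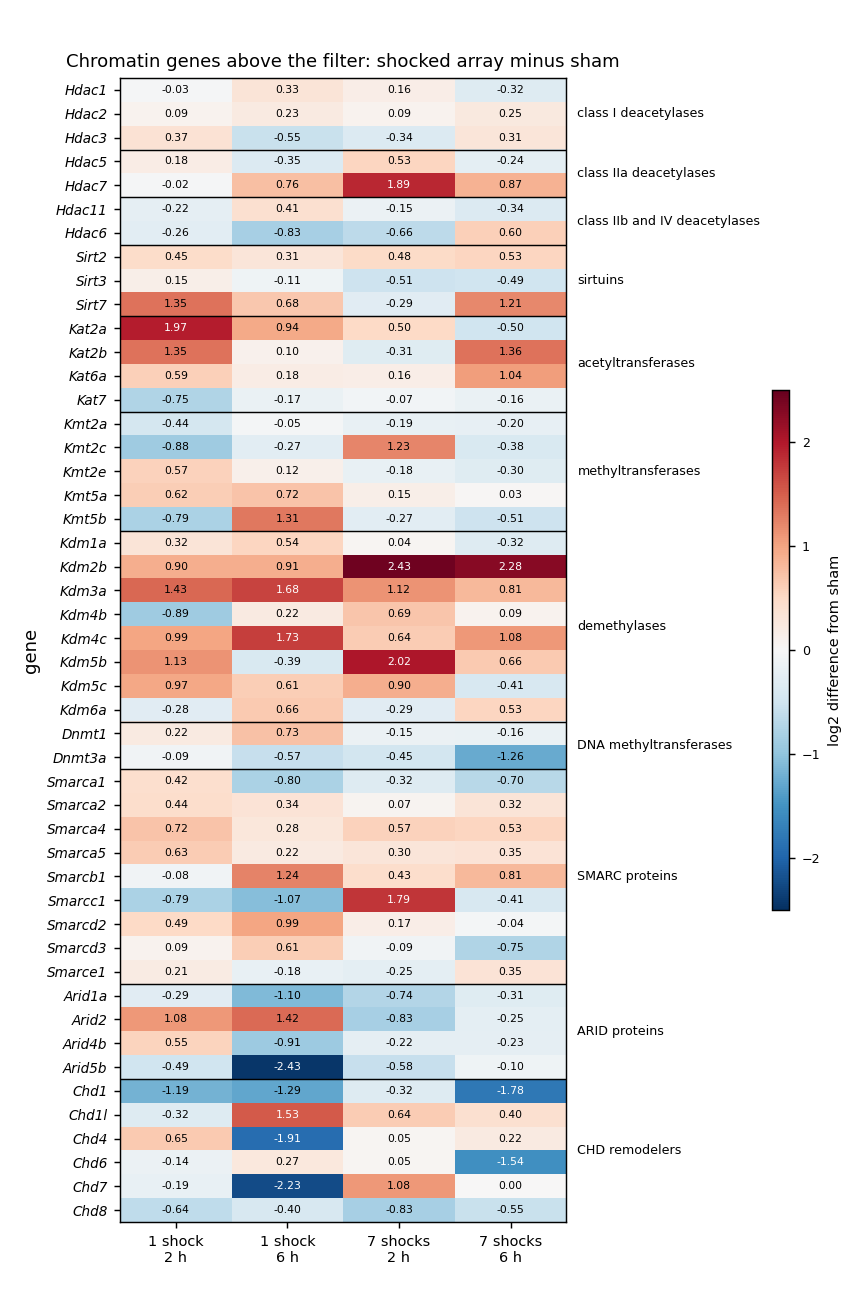
Log2 difference from sham (colour and printed value) of each of the 48 chromatin genes above the filter (rows, grouped by role) on the 4 ECS arrays (columns, 1 array each). Kdm2b is the darkest red in both 7 shock columns (2.43 and 2.28), Arid5b the darkest blue at 6 h after 1 shock (-2.43), and the class I deacetylases are pale throughout.

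The class I deacetylases remove acetyl groups from histones as parts of nuclear corepressor complexes. All 3 on the array passed the filter and none passed 2-fold in any of the 8 comparisons. Of all filtered genes, 52.9% also passed 2-fold in no comparison. Hdac2, which limits memory formation in mice, read 995 at 2 h and 1096 at 6 h after 1 shock and 998 at 2 h and 1112 at 6 h after 7 shocks, against 937 in sham. Those 5 readings lie within 0.25 on the log2 scale. Hdac1 lay between -0.32 and 0.33 of sham, and Hdac3, the catalytic subunit of the NCoR and SMRT complexes, between -0.55 and 0.37.

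Among the class IIa deacetylases, which recruit corepressors to MEF2 factors, Hdac7 stood out on 1 array. It read 41.6 at 2 h and 71.5 at 6 h after 1 shock and 156 at 2 h and 76.7 at 6 h after 7 shocks, against 42.1 in sham. The array of 7 shocks at 2 h was thus the highest, 1.89 above sham and 1.90 above 1 shock at the same time, and the arrays of 1 shock at 2 h and sham were close to each other. Hdac5, whose probe set had the highest mean signal of the class, lay between -0.35 and 0.53 of sham. Hdac9 was below the filter.

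Hdac6, a mostly cytoplasmic enzyme that deacetylates tubulin, read 131 at 2 h and 88.4 at 6 h after 1 shock and 99.1 at 2 h and 237 at 6 h after 7 shocks, against 157 in sham. It was highest after 7 shocks at 6 h, 1.42 above 1 shock at 6 h and 1.26 above 7 shocks at 2 h, but 0.60 above sham. Hdac11, the class IV enzyme, differed from sham by -0.34 to 0.41, and by 0 to 0.44 on its second probe set.

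Of 5 sirtuins, which deacetylate proteins at the cost of NAD+, 3 passed the filter. Sirt7, a nucleolar enzyme, read 66.4 at 2 h and 41.6 at 6 h after 1 shock and 21.3 at 2 h and 60.4 at 6 h after 7 shocks, against 26.1 in sham. Its readings were thus high on 2 arrays that share neither time nor shock number, 1 shock at 2 h (1.35) and 7 shocks at 6 h (1.21). Sirt2, a cytoplasmic tubulin deacetylase abundant in oligodendrocytes, was above sham on all 4 ECS arrays by 0.31 to 0.53, with readings of 195 at 2 h and 177 at 6 h after 1 shock and 198 at 2 h and 205 at 6 h after 7 shocks, against 142 in sham. The mitochondrial Sirt3 lay between -0.51 and 0.15 of sham, and Sirt1 and Sirt4 were below the filter.

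The acetyltransferases Kat2a (GCN5) and Kat2b (PCAF), paralogous catalytic subunits of the SAGA and ATAC coactivators, gave different patterns. Kat2a read 179 at 2 h and 87.9 at 6 h after 1 shock and 64.7 at 2 h and 32.3 at 6 h after 7 shocks, against 45.7 in sham. The array of 1 shock at 2 h was highest (1.97 above sham), 7 shocks were lower than 1 shock at both times (-1.47 at 2 h and -1.44 at 6 h), and 6 h was lower than 2 h after both shock numbers (-1.03 after 1 shock and -1.0 after 7 shocks). A second Kat2a probe set was above sham by 0.63, 0.24, 0.25 and 0.80 on the same 4 arrays and passed 2-fold in no comparison.

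Kat2b read 86.0 at 2 h and 36.1 at 6 h after 1 shock and 27.1 at 2 h and 86.6 at 6 h after 7 shocks, against 33.7 in sham. Like Sirt7, it was high after 1 shock at 2 h (1.35) and after 7 shocks at 6 h (1.36) and near sham on the other ECS arrays (0.10 and -0.31). Kat6a, the catalytic subunit of the MOZ complex, was at least 2-fold above sham only after 7 shocks at 6 h, at 137 against 66.6 in sham (1.04). Kat7 was below sham on all 4 ECS arrays (-0.75 to -0.07), but without rescaling it was above sham on 3 of them.

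Lysine methyltransferases of the MLL family place the active promoter and enhancer marks. Kmt2c (MLL3) read 32.5 at 2 h and 49.6 at 6 h after 1 shock and 140 at 2 h and 45.8 at 6 h after 7 shocks, against 59.7 in sham. Only the array of 7 shocks at 2 h was above sham (1.23), and it was 2.11 above 1 shock at 2 h. Kmt5b, which adds methyl groups to histone H4 in heterochromatin, read 25.2 at 2 h and 109 at 6 h after 1 shock and 36.2 at 2 h and 30.7 at 6 h after 7 shocks, against 43.7 in sham. The array of 1 shock at 6 h was alone above sham (1.31) for that probe set, whereas a second probe set read lowest after 7 shocks at 6 h (-1.47) and was -0.92 from sham after 1 shock at 6 h. Kmt2e, whose probe set had the highest mean signal of the class, lay between -0.30 and 0.57 of sham, and its second probe set between -0.70 and 0.12.

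Of 12 demethylases on the array, 8 passed the filter. By their brightest probe set, 6 of the 8 were above sham after 1 shock at 2 h, 7 after 1 shock at 6 h, 7 after 7 shocks at 2 h and 6 after 7 shocks at 6 h, beside 50.7% to 54.8% of all genes. At least 2-fold above sham stood 2, 2, 3 and 2 of the 8 on those arrays, beside 6.29% to 7.40% of all genes, and 0 stood 2-fold below. Their median difference was 0.94 and 0.64 at 2 h and 6 h after 1 shock and 0.79 and 0.60 at 2 h and 6 h after 7 shocks, beside 0.01 to 0.07 for all genes. Because all 4 medians are taken against the same sham array, they are not independent. The filter used the mean of the 5 arrays, so genes dim in sham may have passed through the ECS arrays. Deposited sham signals of Kdm2b (10.9), Kdm3a (11.3), Kdm4c (16.9), Kdm5c (21.3) and Kdm6a (22.7) were below that array's median of 23.4. Those of Kdm1a, Kdm4b and Kdm5b were above it. The part of the filter in the class counts and medians was not tested. Against 1 shock, the class median after 7 shocks was -0.04 at 2 h and -0.39 at 6 h.

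Kdm2b, which demethylates histone H3 and also brings a Polycomb complex to CpG islands, read 26.9 at 2 h and 27.1 at 6 h after 1 shock and 77.7 at 2 h and 70.1 at 6 h after 7 shocks, against 14.4 in sham. Both 7 shock arrays were higher than both 1 shock arrays, by 1.53 at 2 h and 1.37 at 6 h, and all 4 were above sham (0.90, 0.91, 2.43 and 2.28). The readings at 2 h and 6 h were close to each other after either shock number. Its deposited sham signal of 10.9 was below the array median of 23.4, and whether that signal was detected is not given in the sources used here.

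Kdm3a, a demethylase of the repressive H3K9 mark, read 40.1 at 2 h and 47.7 at 6 h after 1 shock and 32.4 at 2 h and 26.1 at 6 h after 7 shocks, against 14.9 in sham. All 4 ECS arrays were above sham (1.43, 1.68, 1.12 and 0.81), and its deposited sham signal of 11.3 was also below that array's median. Kdm4c, which clears H3K9 and H3K36 methylation, read 42.9 at 2 h and 71.3 at 6 h after 1 shock and 33.5 at 2 h and 45.5 at 6 h after 7 shocks, against 21.5 in sham. It was highest after 1 shock at 6 h (1.73), and the other 3 ECS arrays lay 0.64 to 1.08 above sham. Its deposited sham signal of 16.9 was likewise below the median.

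Kdm5b, a demethylase of the active H3K4 mark, read 107 at 2 h and 37.3 at 6 h after 1 shock and 198 at 2 h and 77.5 at 6 h after 7 shocks, against 48.9 in sham. Both 2 h arrays were high and both 6 h arrays lower, with a difference of -1.52 after 1 shock and -1.35 after 7 shocks. A second, nearly as bright probe set gave -0.64, 0.03, 0.54 and -0.28 against sham, with 6 h against 2 h at 0.67 after 1 shock and -0.82 after 7, so the 2 probe sets of this gene differ after 1 shock. Kdm4b was highest at 7 shocks and 2 h, at 48.4 against 16.2 after 1 shock at 2 h (1.58) and 30.0 in sham. Kdm1a (LSD1), a demethylase of the CoREST corepressor, lay between -0.32 and 0.54 of sham. Its second probe set was below sham on all 4 ECS arrays, with -1.02 and -0.15 after 1 shock at 2 h and 6 h and -0.85 and -0.81 after 7 shocks at 2 h and 6 h.

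**Figure D3:**
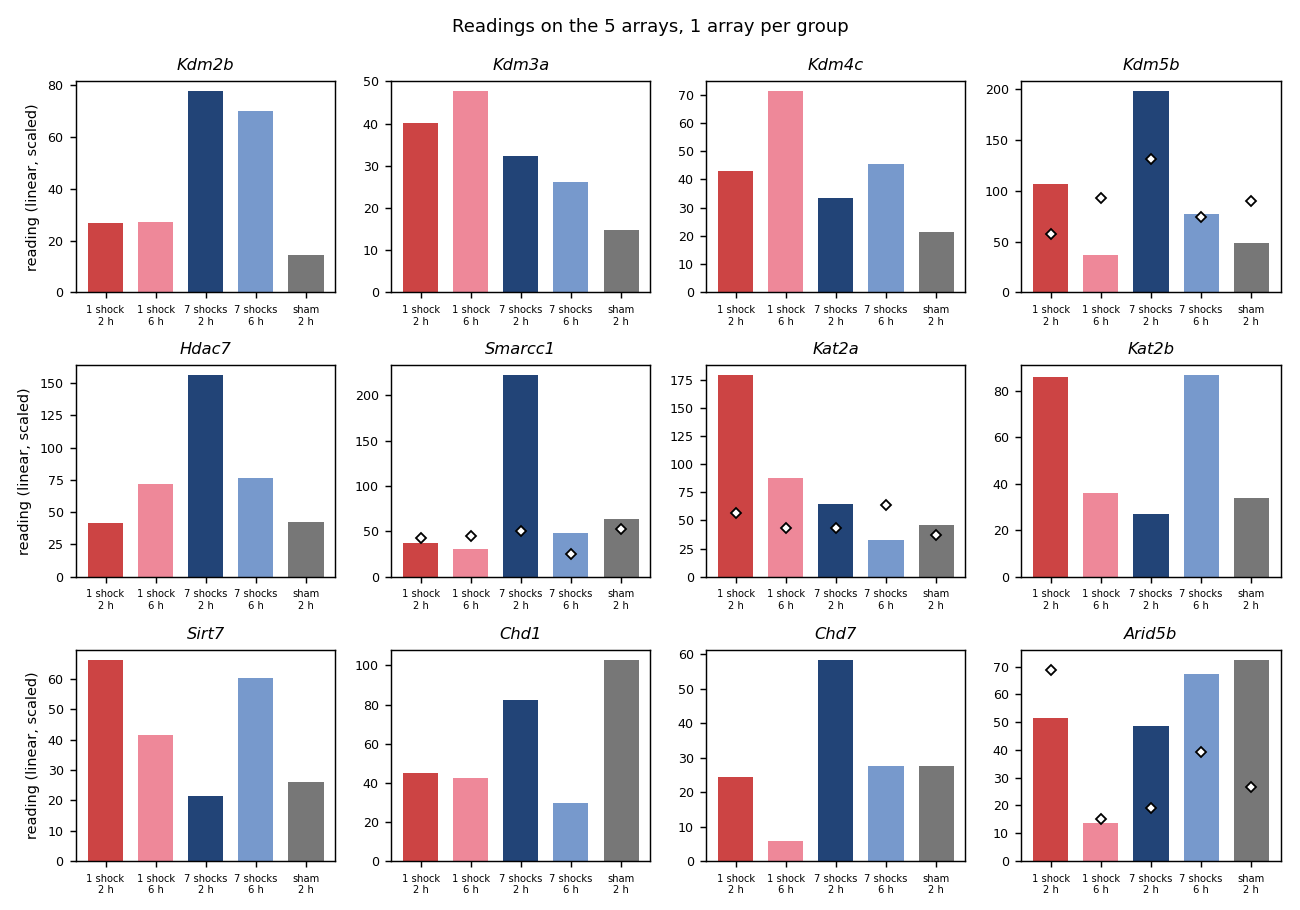
Readings (y axis, linear and scaled, each panel with its own axis from 0) of 12 chromatin genes on the 5 arrays (x axis, 1 bar per array), with diamonds for further probe sets of the same gene. Kdm2b is tallest on both 7 shock arrays, Hdac7 and Smarcc1 after 7 shocks at 2 h, and Kat2b and Sirt7 after 1 shock at 2 h and 7 shocks at 6 h.

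Of 4 DNA methyltransferase genes, Dnmt1 and Dnmt3a passed the filter. Dnmt3a, the enzyme of methylation in mature neurons, read 288 at 2 h and 206 at 6 h after 1 shock and 225 at 2 h and 128 at 6 h after 7 shocks, against 306 in sham. Sham was highest and 7 shocks at 6 h lowest (-1.26, or -0.78 without rescaling). The other 4 probe sets of Dnmt3a gave 0.38, 0.84, -0.99 and -0.16 on that array, so no common direction was seen between probe sets. Dnmt1, the maintenance enzyme, differed from sham by -0.16 to 0.73. Its second probe set was above sham on all 4 ECS arrays, by 1.30 and 0.97 after 1 shock at 2 h and 6 h and 0.56 and 1.44 after 7 shocks at 2 h and 6 h. Tet1, the single TET gene on the array with a probe set of its own, was below the filter.

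Most SMARC proteins, the ATPases and core subunits of SWI/SNF and ISWI machines, stayed within 2-fold of sham. Of 9 above the filter, 1 passed 2-fold in each direction after 1 shock at 6 h, 1 was higher after 7 shocks at 2 h, and 0 passed on the other 2 ECS arrays. Of all genes, 6.29% to 7.40% stood above and 6.83% to 7.73% below in these comparisons. Staying within 2-fold of sham was thus not particular to the SMARC genes. Smarca4 (BRG1), an SWI/SNF ATPase, read 145 at 2 h and 107 at 6 h after 1 shock and 130 at 2 h and 127 at 6 h after 7 shocks, against 88.1 in sham (0.28 to 0.72 above). Its second probe set was on both sides of sham (0.23, -0.62, 1.10 and -0.95). Smarca5 (SNF2H), the ISWI ATPase, was 0.22 to 0.63 above sham, and 1 of its 2 other probe sets was below sham on 3 of 4 ECS arrays. Smarce1, a subunit with an HMG domain, differed from sham by -0.25 to 0.35, and by -0.91 to 0.17 on its second probe set.

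Smarcc1 (BAF155), a scaffold subunit of SWI/SNF, read 37.1 at 2 h and 30.5 at 6 h after 1 shock and 222 at 2 h and 48.1 at 6 h after 7 shocks, against 64.0 in sham. A single array, 7 shocks at 2 h, was high, 1.79 above sham and 2.58 above 1 shock at 2 h. The second probe set of Smarcc1 did not show it, at -0.08 from sham on that array. Smarcb1, another core subunit, was highest after 1 shock at 6 h, at 341 against 144 in sham (1.24), where its second probe set was 0.18 above sham.

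The ARID proteins bind DNA as subunits of several complexes. Arid2, a subunit of the PBAF form of SWI/SNF, read 55.5 at 2 h and 70.5 at 6 h after 1 shock and 14.8 at 2 h and 22.2 at 6 h after 7 shocks, against 26.3 in sham. Both 1 shock arrays were above sham (1.08 and 1.42) and both 7 shock arrays below it (-0.83 and -0.25), and the difference of 7 shocks from 1 shock was -1.90 at 2 h and -1.67 at 6 h. Its deposited signals after 7 shocks (16.5 at 2 h and 24.9 at 6 h) and in sham (20.9) were below the array medians of 31.6, 30.9 and 23.4. Arid1a, a subunit of the BAF form, was below sham on all 4 ECS arrays (-1.10 to -0.29, with 7 shocks at 6 h 0.17 above sham without rescaling), but its second probe set was above sham on 3 of them. Arid4b, a subunit of the SIN3 deacetylase complex, was lower at 6 h than at 2 h after 1 shock (-1.46), and its other 4 probe sets gave -1.43, -0.97, -1.68 and -0.06.

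Arid5b read 51.5 at 2 h and 13.5 at 6 h after 1 shock and 48.7 at 2 h and 67.5 at 6 h after 7 shocks, against 72.5 in sham. The array of 1 shock at 6 h was far the lowest, at -2.43 from sham. A second probe set was lowest on the same array (-0.81), and was 1.36 above sham after 1 shock at 2 h.

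The CHD remodelers, ATPases that slide or assemble nucleosomes, held the widest range. All 6 passed the filter. At least 2-fold above and below sham stood 0 and 1 after 1 shock at 2 h, 1 and 3 after 1 shock at 6 h, 1 and 0 after 7 shocks at 2 h, and 0 and 2 after 7 shocks at 6 h. Of all genes, 6.29% to 7.40% stood above and 6.83% to 7.73% below in these comparisons. Chd1, which works with elongating polymerase, read 45.1 at 2 h and 42.2 at 6 h after 1 shock and 82.3 at 2 h and 29.9 at 6 h after 7 shocks, against 103 in sham. Sham was the highest array, with differences of -1.19 and -1.29 after 1 shock at 2 h and 6 h and -0.32 and -1.78 after 7 shocks at 2 h and 6 h. Chd8, an autism-associated remodeler in humans, was also below sham on all 4 ECS arrays (-0.64, -0.40, -0.83 and -0.55) without reaching 2-fold.

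Chd7, the gene of CHARGE syndrome in humans, read 24.3 at 2 h and 5.88 at 6 h after 1 shock and 58.5 at 2 h and 27.5 at 6 h after 7 shocks, against 27.6 in sham. It was lowest after 1 shock at 6 h (-2.23) and highest after 7 shocks at 2 h (1.08). Its deposited signals after 1 shock (17.4 at 2 h and 5.3 at 6 h) and in sham (22.0) were below the array medians of 20.3, 26.9 and 23.4. Chd4, the ATPase of the NuRD deacetylase complex, read 233 at 2 h and 39.3 at 6 h after 1 shock and 153 at 2 h and 172 at 6 h after 7 shocks, against 148 in sham. That probe set was lowest after 1 shock at 6 h (-1.91), while the other Chd4 probe sets were above sham there (1.45 and 0.32), so the direction of this gene on that array depends on the probe set.

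The same array, 1 shock at 6 h, carried the lowest cortical markers given above. Tbr1 read 1.90 there and 63.9 to 132 on the other 4 arrays, and Lamp5 134 there and 263 to 498 elsewhere. A pair of genes of the related lists, chosen after their values were seen, were lowest there too: Mef2c, the partner of class IIa deacetylases, read 59.5 there and 344 to 621 elsewhere, and the bromodomain gene Brd3 read 1.54 there and 31.7 to 55.3 elsewhere. Whether tissue makeup had a part in the low Arid5b, Chd7 and Chd4 readings was not tested.

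Chd6 was lowest after 7 shocks at 6 h, at 23.0 against 66.8 in sham (-1.54). Its readings on the other 3 ECS arrays, 60.4 to 80.5, were close to sham. Chd1l (ALC1), a remodeler of DNA repair, was highest after 1 shock at 6 h, at 58.8 against 20.4 in sham (1.53).

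The time comparisons after 1 and after 7 shocks share no array, and neither do the shock number comparisons at 2 h and at 6 h, so they can be set against each other. Between 6 h and 2 h, 18 of 48 genes had the same sign after both shock numbers (37.5%, against 49.1% of all genes). Past 2-fold in both were Chd7, Kat2a and Kdm5b, all 3 lower at 6 h, and Kat2b with opposite signs. With the mean of kept probe sets, Kat2a was at -0.71 after 1 shock and -0.23 after 7 shocks and Kdm5b at -0.42 after 1 shock, and without rescaling Kat2a (-0.50), Kdm5b (-0.99) and Kat2b (-0.72) were under 2-fold after 1 shock. With the higher pseudocount, Chd7 (-0.98 after 7 shocks) and Kat2a (-0.98 after 1 shock and -0.92 after 7) were just under 2-fold. Between 7 shocks and 1 shock, 25 of 48 had the same sign at both times (52.1%, against 52.7%). Chd7 and Kdm2b were at least 2-fold higher after 7 shocks at both times, Arid2 and Kat2a at least 2-fold lower at both times, and Kat2b was again opposite. With the mean of kept probe sets Kat2a was at -0.93 at 2 h and -0.44 at 6 h, and without rescaling at -0.83 at 2 h. Kdm2b, Arid2 and Kat2b stayed past 2-fold at both times under the 3 other scalings and both other pseudocounts. So did Chd7, except that under quantile and trimmed mean scaling it was below the filter. Each of these genes has 1 kept probe set, so the mean of kept probe sets returns the same values and is no check on them. For Chd7 the shock number differences were 1.27 at 2 h and 2.23 at 6 h, and the array of 1 shock at 6 h, with its low cortical markers, enters the second of these and the time difference after 1 shock.

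**Figure D4:**
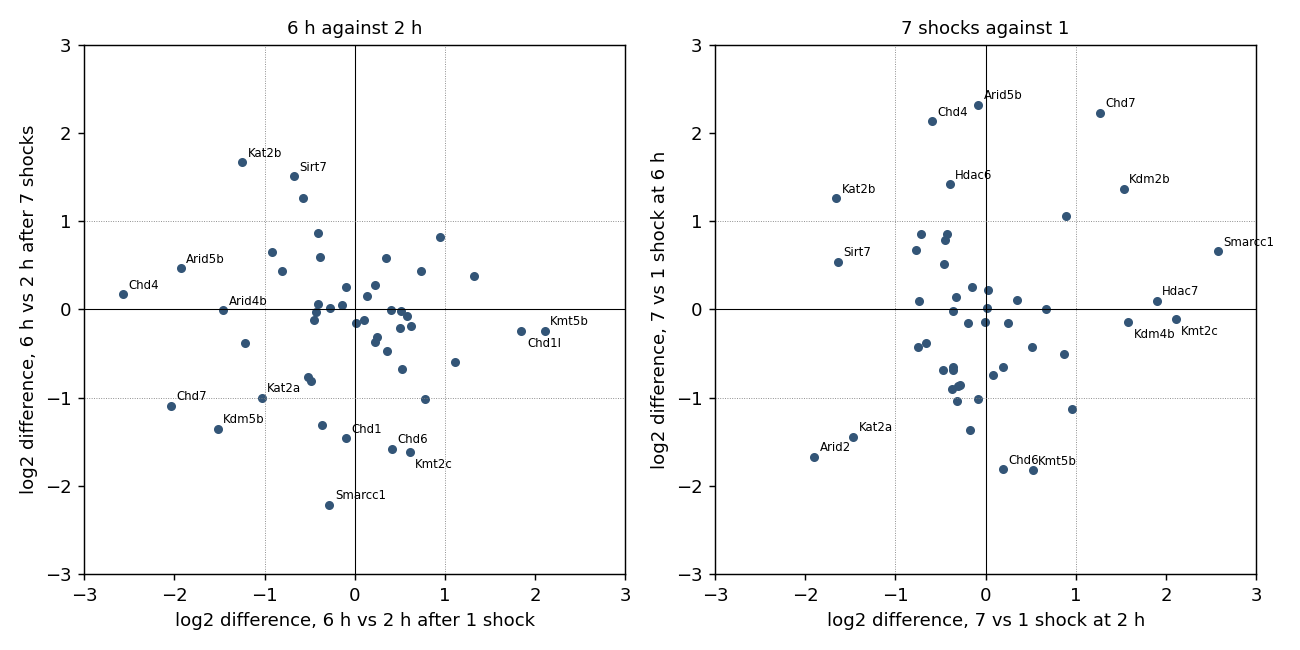
Each point is 1 of the 48 chromatin genes. The left panel plots the log2 difference of 6 h from 2 h after 7 shocks (y axis) against that after 1 shock (x axis), and the right panel the log2 difference of 7 shocks from 1 shock at 6 h (y axis) against that at 2 h (x axis), with dotted lines at 2-fold. Chd7, Kat2a and Kdm5b lie in the lower left of the left panel, Chd7 and Kdm2b in the upper right and Arid2 and Kat2a in the lower left of the right panel, and Kat2b in the upper left of both.

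Probe sets of 1 gene often disagreed in sign. Of the 19 chromatin genes with several kept probe sets, the brightest and the next had the same sign in 6 to 13 (31.6% to 68.4%) over the 8 comparisons, against 56.6% to 59.4% of 2454 genes overall. Kdm2b, Kdm3a, Kdm4c, Hdac7, Kat2b, Sirt7, Arid2, Chd1 and Chd7 had 1 kept probe set each, so their readings have no such check among kept probe sets. Hdac7, Kat2b and Chd1 also had dim probe sets below the filter. Those of Hdac7 and Kat2b did not show the same patterns, and those of Chd1 differed from each other. That of Hdac7 had a deposited signal of 14.5 after 7 shocks at 2 h, against 28.1 in sham. That of Kat2b had 9.1 after 1 shock at 2 h and 7.0 after 7 shocks at 6 h, against 23.8 in sham. A Chd1 probe set was lowest in sham, at 1.1.

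The 19 genes below the filter were Arid3a, Arid3b, Arid5a, Dnmt3b, Dnmt3l, Hdac9, Kat6b, Kdm3b, Kdm5a, Kdm7a, Kdm8, Kmt2d, Kmt5c, Sirt1, Sirt4, Smarcad1, Smarcal1, Smarcd1 and Tet1. They were 28.4% of the chromatin genes, against 46.2% of all genes. Their deposited signals ran from 0.60 to 44.8, with a median of 16.6, and no difference is given for them.

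Chromatin genes outside the symbol rule were followed in 7 lists of 160 genes, of which 95 passed the filter. At least 2-fold above and below sham stood 13 and 6 after 1 shock at 2 h, 5 and 10 after 1 shock at 6 h, 7 and 7 after 7 shocks at 2 h, and 6 and 5 after 7 shocks at 6 h. Those counts are 13.7% and 6.32%, 5.26% and 10.5%, 7.37% and 7.37%, and 6.32% and 5.26% of the 95, beside 6.29% to 7.40% of all genes above and 6.83% to 7.73% below, so most are near the shares of all genes. Prmt6, an arginine methyltransferase, read 28.7 at 2 h and 41.1 at 6 h after 1 shock and 50.4 at 2 h and 73.8 at 6 h after 7 shocks, against 9.76 in sham, so that all 4 ECS arrays were at least 1.56 above sham. These differences rest on a dim sham reading. It was under that of Kdm2b (14.4), whose deposited sham signal of 10.9 was below the array median of 23.4. Hat1, a histone acetyltransferase for new H4, was also above sham on all 4 ECS arrays, by 1.01 to 1.76.

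On the other side, Sin3a, the scaffold of the SIN3 deacetylase complex, read 96.6 at 2 h and 138 at 6 h after 1 shock and 144 at 2 h and 80.1 at 6 h after 7 shocks, against 281 in sham. Its differences were -1.54, -1.03, -0.96 and -1.81, and sham was the highest array. Jarid2, a subunit of Polycomb complex PRC2, read 31.2 to 53.4 on the ECS arrays, against 95.0 in sham. Above sham on all 4 ECS arrays stood Ing2, a reader of the H3K4 mark, by 0.38 to 1.63, Idh2, which makes a cofactor of demethylases, by 0.82 to 1.61, and Ruvbl2, an ATPase of INO80 machines, by 0.47 to 1.63. The Y-linked Uty read 69.4 at 2 h and 43.0 at 6 h after 1 shock and 14.7 at 2 h and 18.8 at 6 h after 7 shocks, against 52.2 in sham.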

How the data were processed

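Ventromedial hypothalamus RNA was measured on 5 Affymetrix mouse arrays, 1 per group. The deposited values are intensity signals on a linear scale, 1 per probe set; MAS5 is named in the submitters' processing notes, and the sources used here do not give its version, target intensity or detection calls. Array medians of the deposited signals were 20.3 and 26.9 (1 shock, 2 h and 6 h), 31.6 and 30.9 (7 shocks, 2 h and 6 h) and 23.4 (sham). The number of arrays limits the precision.

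Of 22690 probe sets, 64 were controls, 691 had several gene symbols and 1606 had none (controls included), and these were left out. Before log2, 1.2 was added as a pseudocount (10th percentile of the signals). The top 50% of probe sets by mean were kept (10401 with 1 symbol), each array was centred on its median, and a gene took its brightest kept probe set. All 67 chromatin symbols matched RefSeq by gene ID. Fold changes are on the log2(signal + pseudocount) scale, which understates those of low genes.

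Named genes were those on 1 side of sham on all 4 ECS arrays (the 6 per direction with the largest smallest difference, or all at least 2-fold), up to 4 per direction past 2-fold in each of the 8 comparisons, and the brightest of each role class; 37 met this. Others are named where a count or probe set comparison includes them. Genes of the related lists were named when past 2-fold against sham on both arrays of 1 time or 1 shock number. The members and lists were chosen with earlier results of these data known. The steps were tested on simulated data. Alternatives were no rescaling, quantile normalization, scaling to a 2% trimmed mean, other pseudocounts (0 and 6.1), other filters (none, top 25%) and other uses of probe sets. Python 3.11.15 with numpy 2.4.6, pandas 2.3.3 and matplotlib 3.10.9 was used.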

Additional observations from a re-analysis of the deposited data

Results flagged for a closer look

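Kat2b differed in direction between groups. Between 6 h and 2 h its log2 difference was -1.25 after 1 shock and 1.67 after 7 shocks. Between 7 shocks and 1 shock it was -1.66 at 2 h and 1.26 at 6 h. The same 4 readings give both contrasts, with 1 array each, and the difference between them was not tested. A second Kat2b probe set, below the filter, ran the other way in its deposited signals. They were 9.1 and 46.7 at 2 h and 6 h after 1 shock, and 15.5 and 7.0 after 7 shocks.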

How the results depend on the processing

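Counts were taken as close within 1.5 times and medians within 0.2 on the log2 scale. All 8 counts and all 8 medians stayed within these limits under quantile normalization, trimmed mean scaling, both other pseudocounts and without _x_at, _s_at and _a_at probe sets. For the medians this limit is wide, since they ran from -0.18 to 0.22, so one could lose its size or sign within it. Without those probe sets the median of 1 shock 2 h against sham was 0.04, beside 0.19. Kat2b had no kept probe set in that setting. Without rescaling, which moved the median of all genes by up to 0.64, the medians were 0.62 (1 shock 6 h against sham), 0.56 and 0.41 (7 shocks 2 h and 6 h against sham), 0.46 (7 against 1 shock at 2 h) and 0.43 (6 h against 2 h after 1 shock), and the counts were 19, 14 and 15 for 1 shock 6 h, 7 shocks 2 h and 7 shocks 6 h against sham. Higher and lower calls then split 4 and 3 (1 shock 2 h against sham), 16 and 3 (1 shock 6 h), 13 and 2 (7 shocks 6 h), 12 and 3 (7 against 1 shock at 2 h) and 13 and 3 (6 h against 2 h after 1 shock). In the same order all genes split 312 and 609, 1169 and 255, 1368 and 189, 1827 and 117, and 1623 and 197. The shift was thus not particular to the chromatin genes. Under quantile normalization the split for 1 shock 6 h was 8 and 5, beside 515 and 463 of all genes. Without the low value filter, 14, 20, 16 and 16 of 67 genes passed against sham after 1 shock at 2 h and 6 h and 7 shocks at 2 h and 6 h. All genes then split 1693 higher and 1388 lower, 1764 and 1747, 1650 and 1624, and 1761 and 1687. With the top 25% kept, 0, 2, 0 and 1 of 22 passed in those comparisons, 0 and 4 for 7 against 1 shock at 2 h and 6 h, and 3 and 1 for 6 h against 2 h after 1 and 7 shocks. Of all genes so kept, 5.42%, 7.39%, 6.56% and 7.39% passed against sham. In the other 4 comparisons the shares were 7.04%, 9.21%, 7.96% and 6.24%. With the mean of kept probe sets, 7 passed for 1 shock 6 h against sham and 7 for 6 h against 2 h after 1 shock. Without _x_at, _s_at and _a_at probe sets, which drops the brightest Chd4 probe set, Chd4 turned direction. It then stood at 1.46 (1 shock 6 h against sham), -1.78 (7 against 1 shock at 6 h) and 1.6 (6 h against 2 h after 1 shock). The mean of kept probe sets put Smarcc1 at 0.86 (7 shocks 2 h against sham) and Dnmt3a at -0.24 (7 shocks 6 h against sham). No paired analysis was possible because each group has 1 array.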
